A study of Mus musculus with 9 samples.

Results

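The transcription factors that set and keep the identity of Sertoli cells and of the somatic gonad were followed as 9 genes, Sox9, Sox8, Wt1, Gata4, Gata1, Dmrt1, Nr5a1, Nr0b1 and Lhx9. They were chosen by symbol from the 56691 genes of the count table, and each symbol matched 1 Ensembl identifier. Earlier results of these data were known at that choice, so shares set beside the background only describe these genes. All 9 had enough counts to be tested among the 17251 genes that did. Gata1 passed that filter through its WT and DKO counts, since its counts in the libraries labelled Gm1142 KO were 7 to 10.

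The data were poly(A) RNA libraries from whole mouse testes at postnatal day 7, in 3 groups of 3 libraries. The groups were wild type (WT), testes labelled Gm1142 knockout (Gm1142-/-, here Gm1142 KO), and testes labelled as double knockout of Gm1142 and Gm4779 (Gm1142-/- Gm4779-/-, here DKO). No strain, litter or method of gene disruption was given in the sources used here, and since separate animals are not named for the replicates either, the p-values describe the spread between these libraries, which may be technical. Total counts ran from 4370124 to 8359594 per library, with DKO replicate 2 the deepest. Levels are given in CPM, read counts brought to a common library size after scaling by the trimmed mean of M-values (TMM), and a gene is said to rise or fall where the edgeR quasi-likelihood test, adjusted by Benjamini-Hochberg over all 17251 genes, gave a value under 0.05.

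The labels were checked on the targeted genes. Gm1142 and Gm4779 had 0 counts in each DKO library, against 41 to 56 and 42 to 53 counts in WT. The libraries labelled Gm1142 KO had 46 to 65 counts of Gm1142, so a summed count does not check that label, and directions for this group rest on the label alone. On the leading principal component of all tested genes these 3 libraries scored 43.7 to 67.5 and the remaining 6 scored -34.0 to -21.6, and 32.5% to 38.9% of their counts came from mitochondrially encoded genes against 27.1% to 32.9% in the others. The part of this separation in the results below was not tested.

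In the fetal testis, Sry switches on Sox9, which directs supporting cells to become Sertoli cells, and Sox8 shares part of its work. Wt1, Gata4, Nr5a1 and Lhx9 act earlier, in building the bipotential gonad, and several of them stay on in Sertoli cells after birth. Dmrt1 keeps Sertoli cells from taking on an ovarian identity and also acts in spermatogonia. Nr5a1 (steroidogenic factor 1) and its antagonist Nr0b1 (DAX1) also set steroid synthesis in Leydig cells, and Gata1 is a red-cell factor that is also made in Sertoli cells of the mouse. Gata4, Wt1 and Nr5a1 are made in more than 1 somatic cell type, so none of these levels belongs to Sertoli cells alone. In whole testes, fewer cells of a type and less RNA per cell cannot be told apart.

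Per kilobase of annotated exon, the WT order was led by Wt1, at 39.5 ± 1.34 CPM per kilobase (SD, n = 3), and Dmrt1, at 36.5 ± 2.96. Their WT libraries overlapped. Gata4 followed at 30.0 ± 0.482 and Nr5a1 at 25.4 ± 1.33, each apart from its neighbours in all 3 libraries. Sox8 (13.6 ± 2.80) and Sox9 (12.5 ± 0.910) overlapped with each other and stood apart from Nr0b1 at 6.47 ± 1.68. Gata1 (2.36 ± 1.53) and Lhx9 (2.12 ± 0.272) were lowest and overlapped. Exon lengths are from the GENCODE M21 annotation of GRCm38 and sum all annotated exons, so genes with long alternative exons, such as Lhx9 with 9494 exonic bases, come out low on this scale. In the libraries labelled Gm1142 KO the same scale put Nr0b1 (6.14 ± 1.16), Sox8 (6.11 ± 0.514) and Sox9 (4.47 ± 1.51) next to each other, with overlapping libraries. In DKO the WT order returned except that Dmrt1 (44.3 ± 5.07) and Wt1 (38.6 ± 2.60) changed places, with overlapping libraries.

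Between the libraries labelled Gm1142 KO and WT, 4 of the 9 factors changed. Sox9, Sox8 and Gata1 fell, Wt1 rose, and Gata4, Dmrt1, Nr5a1, Nr0b1 and Lhx9 did not pass the test. Over all tested genes 18.5% were called in this comparison, 8.38% lower and 10.2% higher. The median log2 fold change of the 9 was -0.19, against -0.01 over all tested genes. The sizes ran from 3.17-fold lower for Gata1 and 2.77-fold lower for Sox9 to 1.38-fold higher for Wt1. Gata1 had few counts, and its call was kept in 16 of 19 alternative analyses. All 3 libraries labelled Gm1142 KO lay below all 3 WT libraries for 4 of the 9 and above them for 3, against 17.2% and 18.7% of tested genes. Between DKO and WT none of the 9 passed.

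**Figure D1:**
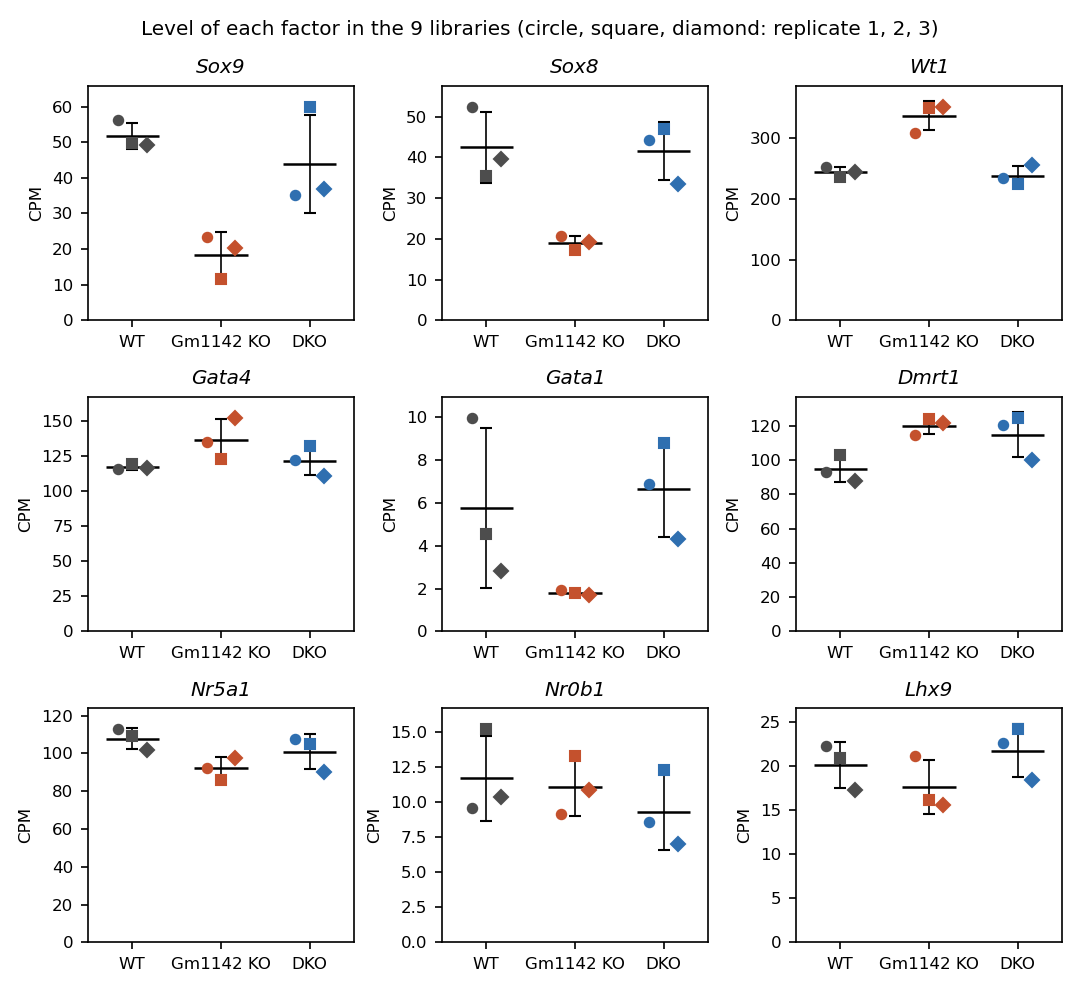
Level of each of the 9 factors in every library, in CPM on TMM-scaled library sizes (vertical axes start at 0), with 1 point per library, a bar at the group mean and error bars of 1 SD (n = 3). Sox9, Sox8, Gata1 and Nr5a1 are lower in all 3 libraries labelled Gm1142 KO than in any WT library, and Wt1, Gata4 and Dmrt1 are higher in all 3. Of these, Nr5a1, Gata4 and Dmrt1 did not pass the test.

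Sox9, the HMG-box factor at the head of the Sertoli program, lies on chromosome 11 at positions 112782224 to 112787760 of GRCm38 (plus strand, 3 annotated exons). Its level was 56.1, 49.9 and 49.3 CPM in WT replicates 1, 2 and 3, then 23.5, 11.5 and 20.5 CPM in the libraries labelled Gm1142 KO, and 35.2, 59.8 and 36.9 CPM in DKO. All libraries labelled Gm1142 KO lay below all others, while DKO was split, with replicates 1 and 3 below every WT library and replicate 2 above. The log2 fold change of the libraries labelled Gm1142 KO against WT was -1.47 (SE 0.23, 95% interval -1.95 to -0.98, adjusted p of 1.56e-04 by edgeR), a 2.77-fold lower level. It kept its call in each of 19 alternative analyses, over a range of -1.68 to -1.23. DKO against WT gave -0.22 (interval -0.67 to 0.23, adjusted p of 0.821 by edgeR), which still admits a fall of up to 0.67. Leaving out 1 library moved this value between -0.54 and -0.10. The direct comparison of DKO with the libraries labelled Gm1142 KO gave 1.25 (SE 0.23, adjusted p of 7.81e-04 by edgeR), and 0.71 (adjusted p of 0.0152 by edgeR) without replicate 2 of both knockout groups.

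Sox8, the close relative of Sox9 that can act in its place in Sertoli cells, lies on chromosome 17 at 25565892 to 25570686 (minus strand). It was at 52.3, 35.5 and 39.6 CPM in WT, at 20.6, 17.4 and 19.2 CPM in the libraries labelled Gm1142 KO, and at 44.2, 47.0 and 33.5 CPM in DKO. The libraries labelled Gm1142 KO were closely grouped and below all 6 others, and WT and DKO overlapped. Its log2 fold change was -1.15 (SE 0.19, interval -1.55 to -0.75, adjusted p of 2.88e-04 by edgeR) against WT, and the call was kept in each of the 19 alternatives. DKO was level with WT at -0.02, with an interval of -0.40 to 0.35, and above the libraries labelled Gm1142 KO by 1.13 (SE 0.19, adjusted p of 3.53e-04 by edgeR). An antisense gene, 2810468N07Rik, shares 329 of the 3118 exonic bases of Sox8. It had 136 to 189 counts in WT and 66 to 88 in libraries labelled Gm1142 KO (log2 difference -0.82, SE 0.21, adjusted p of 0.00938 by edgeR), and because the strand setting of the counting is not given in the sources used here, reads in the shared bases cannot be assigned to either gene.

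Gata1, the zinc-finger factor best known from red cells, was the least abundant member by count. It lies on the X chromosome at 7959260 to 7978071 (minus strand). It had 52, 23 and 13 counts in WT, 10, 7 and 8 in the libraries labelled Gm1142 KO, and 36, 78 and 19 in DKO. In CPM these were 9.95, 4.53 and 2.80, then 1.94, 1.79 and 1.70, then 6.89, 8.80 and 4.30. No library labelled Gm1142 KO reached the lowest WT or DKO value, though WT itself was widely spread. The log2 fold change against WT was -1.66 (SE 0.50, interval -2.70 to -0.62, adjusted p of 0.0237 by edgeR). This call rested on few counts: it was lost without WT replicate 1 (-1.01, adjusted p of 0.236 by edgeR), without replicate 3 of the libraries labelled Gm1142 KO (-1.63, 0.0723) and with limma-voom (-1.45, adjusted p = 0.104). DKO was above the libraries labelled Gm1142 KO by 1.88 (SE 0.49, adjusted p of 0.0103 by edgeR), a call that was lost without DKO replicate 2 (1.63, adjusted p of 0.0626 by edgeR).

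Because Gata1 is also made by red-cell precursors, 8 red-cell markers were summed. They came to 71.7 to 87.2 CPM in WT, 95.7 to 138 CPM in the libraries labelled Gm1142 KO and 63.1 to 85.3 CPM in DKO. The sum was therefore highest where Gata1 was lowest, and its most abundant members were the globins Hbb-bs, Hba-a1 and Hba-a2. Hba-a1 was called higher in the libraries labelled Gm1142 KO, by 0.72 on the log2 scale (SE 0.22, adjusted p of 0.0236 by edgeR). None of the 6 tested red-cell markers was called without WT replicate 1, WT replicate 2 or replicate 1 of the libraries labelled Gm1142 KO. Klf1, a red-cell factor that works with Gata1, was at 2.23 ± 1.25 CPM in WT, against 0.729 ± 0.636 CPM in the libraries labelled Gm1142 KO (SD, n = 3 each), and stayed short of the threshold (adjusted p of 0.198 by edgeR). The part of red cells in the Gata1 level was not tested.

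Wt1, a zinc-finger factor that the fetal gonad needs to form and that Sertoli cells go on making, was the member that rose. It lies on chromosome 2 at 105126529 to 105173616 (plus strand). Its level was 253, 237 and 244 CPM in WT, 309, 351 and 351 CPM in libraries labelled Gm1142 KO, and 235, 225 and 256 CPM in DKO. All 3 libraries labelled Gm1142 KO were above all others, and WT and DKO overlapped. The log2 fold change was 0.46 (SE 0.11, interval 0.23 to 0.69, adjusted p of 0.00584 by edgeR), with the call kept in each of the 19 alternatives at adjusted p values of up to 0.0425. DKO was below the libraries labelled Gm1142 KO, at a log2 difference of -0.50 (SE 0.11, adjusted p of 0.0035 by edgeR).

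**Figure D2:**
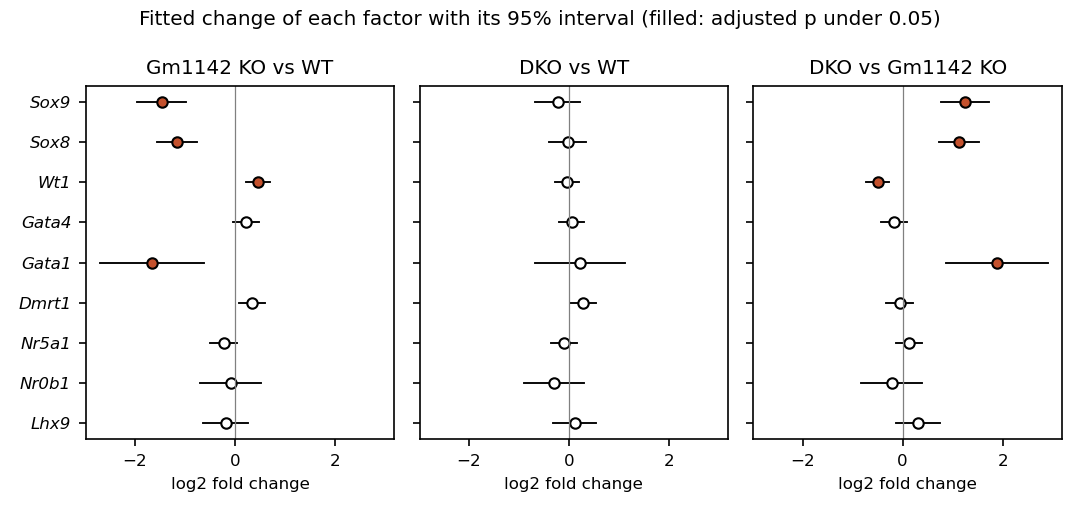
Fitted log2 fold change of each factor (points) with its 95% interval (lines) in the 3 comparisons, where filled points have an edgeR adjusted p under 0.05. In both comparisons with the libraries labelled Gm1142 KO the same 4 factors are filled, and in DKO against WT no point is filled.

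Ratios of counts within a library do not depend on how libraries are scaled, but they do depend on the denominator. In the libraries labelled Gm1142 KO, Wt1 was itself called higher than in WT (0.46). Gata4 was higher there without passing (0.22), so ratios to either gene come out lower than the factor's own change. Sox9 had 0.202 to 0.221 counts per count of Wt1 in WT, 0.0328 to 0.0760 in libraries labelled Gm1142 KO and 0.144 to 0.266 in DKO. For Sox8 the same ratio was 0.150 to 0.206, then 0.0496 to 0.0665, then 0.131 to 0.209. Sox9 relative to Gata4 gave 0.417 to 0.483 in WT, 0.0936 to 0.174 in libraries labelled Gm1142 KO and 0.289 to 0.453 in DKO. So Sox9 relative to Wt1 and Gata4, and Sox8 relative to Wt1, did not overlap with WT. Sox9 relative to Sox8 overlapped between those groups, at 1.07 to 1.41 in WT and 0.662 to 1.14 in libraries labelled Gm1142 KO. Dmrt1 relative to Wt1 also overlapped, at 0.361 to 0.435 in WT and 0.346 to 0.371 in libraries labelled Gm1142 KO, and was 0.390 to 0.554 in DKO.

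**Figure D3:**
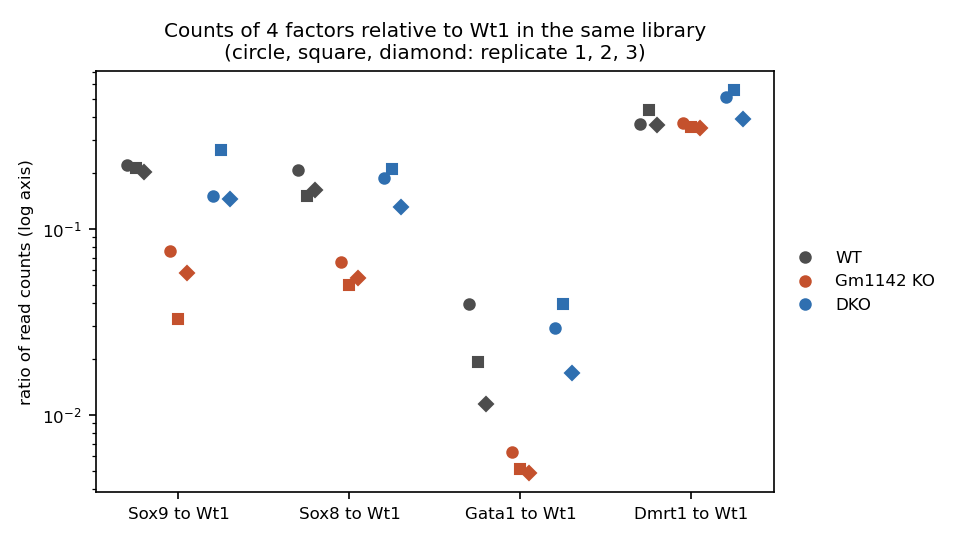
Read counts of Sox9, Sox8, Gata1 and Dmrt1 divided by those of Wt1 in the same library (log axis), with 1 point per library. The Sox9, Sox8 and Gata1 ratios of the libraries labelled Gm1142 KO lie below those of all WT and DKO libraries, while their Dmrt1 ratios overlap with WT. Wt1, the denominator, is itself called higher in the libraries labelled Gm1142 KO than in WT.

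Of the 5 members that did not pass in any comparison, Dmrt1 came nearest. Dmrt1, a DM-domain factor on chromosome 19 (25505618 to 25604329), was at 92.8, 103 and 88.1 CPM in WT, 115, 124 and 121 CPM in libraries labelled Gm1142 KO, and 120, 124 and 99.9 CPM in DKO. The libraries labelled Gm1142 KO were above all WT libraries, with a log2 fold change of 0.34 (interval 0.08 to 0.61, adjusted p of 0.0695 by edgeR). DKO against WT gave 0.28 (interval 0.02 to 0.55, adjusted p of 0.534 by edgeR), with replicate 3 inside the WT range. Since spermatogonia also make Dmrt1, 12 germ-cell markers were summed beside it, and came to 450 to 539 CPM in WT, 414 to 508 CPM in the libraries labelled Gm1142 KO and 734 to 896 CPM in DKO, where 3 of the 11 tested were called higher than in WT, beside 0.0464% of all tested genes. None of the 3 calls was made without WT replicate 1. All 11 tested markers had positive log2 fold changes in DKO against WT, with a median of 0.78. In the libraries labelled Gm1142 KO the tested markers moved both ways against WT, 7 up and 4 down. Dazl, an RNA-binding protein of germ cells and the most abundant of them, was called lower (195 ± 27.0 to 124 ± 18.7 CPM), and Sycp1, Dnd1 and Uchl1 were called higher, by 0.62, 0.67 and 0.49 on the log2 scale. Without WT replicate 1, 1 of the 11 was called. The summed level follows Dazl more than any other marker. The part of the germ-cell markers in the Dmrt1 level was not tested.

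Gata4, a zinc-finger factor that acts with Nr5a1 and Wt1 on Sertoli-cell genes, lies on chromosome 14 (63198922 to 63271692, minus strand). It was at 116, 119 and 116 CPM in WT, 135, 123 and 152 CPM in libraries labelled Gm1142 KO, and 122, 132 and 111 CPM in DKO. The libraries labelled Gm1142 KO did not overlap with WT, but the log2 fold change of 0.22 (interval -0.04 to 0.48, adjusted p of 0.239 by edgeR) did not pass. In DKO it was 0.05, with an interval of -0.20 to 0.31.

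Nr5a1, the nuclear receptor that switches on steroid-synthesis genes, lies on chromosome 2 (38692656 to 38714542, minus strand). It was at 113, 109 and 102 CPM in WT, 92.4, 85.9 and 97.6 CPM in libraries labelled Gm1142 KO, and 108, 105 and 90.1 CPM in DKO. The libraries labelled Gm1142 KO lay just below WT, with a log2 fold change of -0.23 (interval -0.49 to 0.03, adjusted p of 0.231 by edgeR), and DKO overlapped with WT at -0.10 (interval -0.35 to 0.17). The antisense gene Nr5a1os lies within it, shares no exonic base with it and had 34 to 55 counts per library.

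Nr0b1, which restrains Nr5a1, and Lhx9, a LIM-homeobox factor of the early gonad, showed no separation of the groups. Nr0b1 (X chromosome, 86191764 to 86195947, plus strand) was at 9.57, 15.2 and 10.3 CPM in WT, 9.13, 13.3 and 10.9 CPM in libraries labelled Gm1142 KO, and 8.61, 12.3 and 7.02 CPM in DKO. Lhx9 (chromosome 1, 138825186 to 138848577, minus strand) was at 22.2, 20.9 and 17.2 CPM, then 21.2, 16.1 and 15.5 CPM, then 22.6, 24.1 and 18.4 CPM. For both genes every pair of groups overlapped. Against WT, the libraries labelled Gm1142 KO gave a log2 fold change of -0.08 for Nr0b1 (interval -0.69 to 0.52) and -0.19 for Lhx9 (interval -0.63 to 0.26), and both intervals span 0.

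In DKO against WT, 0 of the 9 factors were called by edgeR, by DESeq2 or by limma-voom, and 1, Dmrt1, had an unadjusted p under 0.05. The background was 16 of 17251 genes, or 0.0927%, with 0.0464% called in each direction. For 0 of the 9 did the libraries of DKO and WT stay apart, against 8.28% of tested genes with DKO above and 7.57% with DKO below. The log2 fold changes of the 9 ran from -0.30 for Nr0b1 to 0.28 for Dmrt1, with a median of -0.02 against 0.02 over all tested genes. The intervals were narrow for Wt1 (-0.27 to 0.20) and Gata4, and wide for Gata1 (-0.67 to 1.12). Between DKO and the libraries labelled Gm1142 KO, 4 of the 9 were called, with Sox9, Sox8 and Gata1 higher in DKO and Wt1 lower, against a background of 19.1% of tested genes (9.07% higher and 10.1% lower). The libraries stayed apart for those 4 alone, against 16.3% of tested genes upward and 17.1% downward. This comparison and the one with WT share the libraries labelled Gm1142 KO, so the second set of calls is no independent repeat of the first.

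Promoters were matched in RefSeq's table for GRCm38.p6 for 4 of the 9 factors, and all 4 are shown, as the sequences before genes that changed (Sox8, Gata1) and genes that did not pass (Nr0b1, Lhx9). Each line gives the 250 bases before the RefSeq start, 5′ to 3′ on the strand of the gene, and capitals mark matches to the motifs searched on both strands. These were AACAAT and ACAAAG, which SOX factors bind, AGATAA for GATA factors and AAGGTCA for Nr5a1 and its relatives.
Sox8, chr17:25570687-25570936, minus strand: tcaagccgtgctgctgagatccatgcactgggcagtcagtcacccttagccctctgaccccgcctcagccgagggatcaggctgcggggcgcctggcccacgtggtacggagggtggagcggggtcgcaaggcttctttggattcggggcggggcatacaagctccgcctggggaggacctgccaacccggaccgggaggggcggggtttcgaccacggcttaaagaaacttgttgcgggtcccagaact
Gata1, chrX:7967911-7968160, minus strand: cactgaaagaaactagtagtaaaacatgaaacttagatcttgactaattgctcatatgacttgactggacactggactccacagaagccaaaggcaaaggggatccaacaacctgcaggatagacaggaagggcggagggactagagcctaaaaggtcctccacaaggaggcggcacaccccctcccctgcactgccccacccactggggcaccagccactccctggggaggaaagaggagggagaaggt
Nr0b1, chrX:86191525-86191774, plus strand: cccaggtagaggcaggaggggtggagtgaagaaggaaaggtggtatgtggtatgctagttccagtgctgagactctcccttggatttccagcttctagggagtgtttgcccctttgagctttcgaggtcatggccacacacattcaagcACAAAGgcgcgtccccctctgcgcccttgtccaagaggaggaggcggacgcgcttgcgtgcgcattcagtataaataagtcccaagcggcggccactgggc
Lhx9, chr1:138842445-138842694, minus strand: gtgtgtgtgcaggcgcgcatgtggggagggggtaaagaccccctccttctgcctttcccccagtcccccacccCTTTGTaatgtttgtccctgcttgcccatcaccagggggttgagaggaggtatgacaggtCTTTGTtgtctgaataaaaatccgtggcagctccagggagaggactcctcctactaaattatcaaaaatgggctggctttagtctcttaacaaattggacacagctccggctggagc
Nr0b1 holds 1 match to ACAAAG, 101 to 96 bases before its start. Lhx9 holds 2 matches to ACAAAG on the other strand, at 177 to 172 and 117 to 112 bases before its start. The windows of Sox8 and Gata1 hold none of the 4 motifs. Over 32851 RefSeq promoter windows of this length, 16.5% hold ACAAAG, 9.4% AACAAT, 10% AGATAA and 4.1% AAGGTCA. The window of Sox8 is 65.6% G and C. The window of Gata1 stands before a start at 7967910, inside the annotated gene, while its most distant annotated start is at 7978071. The window of Lhx9 likewise stands before a start at 138842444, inside a gene whose most distant annotated start is at 138848577. Gata1 is known to be transcribed in Sertoli cells from a start upstream of the one used in blood cells, and gene-level counts do not tell the starts apart.

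Other gonadal regulators and cofactors were read from a list of 26 genes, of which 21 were tested. In the libraries labelled Gm1142 KO against WT, 1 rose and 2 fell, beside 10.2% higher and 8.38% lower over all tested genes, so the share called was near the background. Nr4a1, an orphan nuclear receptor that acts on steroid-synthesis genes in Leydig cells, fell by 2.64 on the log2 scale (SE 0.20), and was the 1 gene of the list to fall in DKO against WT (-1.54, SE 0.18). Nr2f2 (COUP-TFII), a nuclear receptor of interstitial cells with the highest mean CPM of the list, was at 111 ± 15.8 CPM in WT, against 100.1 ± 10.7 CPM in the libraries labelled Gm1142 KO (adjusted p of 0.53 by edgeR). The list's median log2 fold change was -0.14. Without replicate 2 of both knockout groups, 6 of its genes were called in place of 3.

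Between DKO and the libraries labelled Gm1142 KO, 2 of the 21 tested genes of this list were higher in DKO and 4 were lower, beside 9.07% and 10.1% over all tested genes. Nr4a1 was among the higher ones, at 54.6 ± 19.2 CPM in DKO against 25.1 ± 1.99 CPM (adjusted p of 4.97e-04 by edgeR). Gata6, a relative of Gata4 in the somatic gonad, was at 50.2 ± 0.943 CPM in the libraries labelled Gm1142 KO and 32.3 ± 5.91 CPM in DKO (log2 difference -0.62, SE 0.16, adjusted p of 0.0103 by edgeR). Fgfr2, a receptor for Fgf9 in the fetal testis, differed by -0.84 (SE 0.16) and the orphan receptor Nr2f1 by -1.30 (SE 0.31). Sry, the fetal switch above Sox9, had 0 counts in all 9 libraries, which allows up to 0.0636 CPM over the 9 together (3 counts, counting error only).

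Of 25 genes listed as targets in Sertoli cells, here Sertoli targets, 23 had enough counts to be tested. The word target is only the name of this list. Whether any of the factors followed here acts on these genes was not tested. The same 25 genes were also the Sertoli-cell markers, so their sum is the Sertoli marker sum. This list and the other lists were chosen with earlier results of these data known, so a share set beside the background only describes them. In the libraries labelled Gm1142 KO, 10 of the 23 fell and none rose against WT, beside a background of 8.38% lower, and 13 did not pass. Of the 23, 19 had negative and 4 had positive log2 fold changes, with a median of -0.51. The 25 summed to 2380 to 2620 CPM in WT, 1850 to 2000 CPM in the libraries labelled Gm1142 KO and 2220 to 2820 CPM in DKO. The largest parts of that sum were Clu, Inha and Mro, at 528 ± 33.9, 461 ± 13.2 and 351 ± 5.07 CPM in WT. It therefore mainly follows those genes and is no measure of Sertoli cells. The count depended on the libraries: 5 fell without WT replicate 2, and 6 without WT replicate 1.

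The 5 that fell no matter which library was dropped were Espn, Hsd17b1, Shbg, Cst9 and Mro. Espn, an actin-bundling protein of Sertoli junctions, fell from 116 ± 9.32 to 62.1 ± 12.4 CPM (log2 difference -0.91, SE 0.15, adjusted p of 2.69e-04 by edgeR). Hsd17b1, a steroid dehydrogenase, fell from 75.2 ± 15.1 to 37.5 ± 7.26 CPM (-1.01, SE 0.17). Shbg, which encodes the androgen-binding protein, went from 64.7 ± 2.03 to 34.1 ± 6.64 CPM, and the cystatin gene Cst9 from 83.2 ± 12.9 to 49.6 ± 1.17 CPM. Mro, a gene of the early male gonad, went from 351 ± 5.07 to 242 ± 16.7 CPM (-0.54, SE 0.11, adjusted p of 0.00159 by edgeR).

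The other 5 also passed, but each lost its call when 1 of 3 to 6 single libraries was left out. Ptgds, which makes the prostaglandin that helps to sustain Sox9, changed by -0.82 (adjusted p of 0.101 by edgeR at most, without replicate 1 of the libraries labelled Gm1142 KO). Kitl, the ligand for Kit on spermatogonia, changed by -0.61 (0.0802 at most, without WT replicate 1) and Defb19, an early Sertoli gene, by -1.14 (0.0900 at most, without replicate 3 of the libraries labelled Gm1142 KO). Cyp26b1, which clears retinoic acid, changed by -0.51 (0.153 at most, without WT replicate 2) and Aard by -0.46 (0.158 at most, without replicate 2 of the libraries labelled Gm1142 KO).

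Not every Sertoli target was called in this comparison. Amh, which encodes the hormone that makes the female ducts regress and is a classic target of Sox9, Gata4, Wt1 and Nr5a1, was at 68.9 ± 6.77 CPM in WT, against 61.4 ± 3.32 CPM in the libraries labelled Gm1142 KO (log2 difference -0.17, SE 0.16, adjusted p of 0.514 by edgeR). The 2 most abundant targets did not pass either: Clu changed by -0.39 (SE 0.16, adjusted p of 0.092 by edgeR) and Inha, the inhibin alpha subunit, by -0.03 (SE 0.11, 0.873). Clu passed without DKO replicate 2 (adjusted p of 0.0361 by edgeR), with no filter on low counts (0.00947) and with the compared groups alone (0.0418).

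In DKO against WT, 0 of the 23 Sertoli targets were called by edgeR, DESeq2 or limma-voom, and 2 had an unadjusted p under 0.05 with edgeR. Their median log2 fold change was -0.06. Against the libraries labelled Gm1142 KO, 12 of the 23 were higher in DKO and none lower (background 9.07% higher), with a median of 0.54. Without DKO replicate 2, the deepest library, 7 were called. Calls over all tested genes then went from 3301 to 2128. The 6 that kept the call no matter which library was dropped were Espn (0.78), Shbg (0.80), Cst9 (0.80), Mro (0.48), Kitl (0.86) and Aard (0.72), as log2 fold changes with SEs of 0.11 to 0.18. The other 6 were Inhbb, Cyp26b1, Clu, Cldn11, Defb19 and Hsd17b1, each of which lost the call without 2 to 6 single libraries, with edgeR adjusted p values of at most 0.113 (Hsd17b1) to 0.273 (Clu).

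Steroid-synthesis genes, which Nr5a1 activates and Nr0b1 restrains, were read from 11 genes, of which 8 were tested. In the libraries labelled Gm1142 KO, 3 fell and none rose against WT, beside a background of 8.38% lower, with a median log2 fold change of -0.68. Fdxr, the reductase that feeds electrons to mitochondrial steroid enzymes, had the most abundant transcript of the list and fell by 1.23 on the log2 scale (SE 0.12, adjusted p of 4.35e-07 by edgeR). Hsd3b1 fell by 0.67 (SE 0.16). Cyp17a1 was at 165, 156 and 46.3 CPM in WT, against 13.8, 39.1 and 7.67 CPM in the libraries labelled Gm1142 KO, a fall of 2.64 (SE 0.54, adjusted p of 0.00162 by edgeR) with wide spread in every group. Nr5a1 itself was at -0.23 in this comparison. Markers of Leydig cells, which include Cyp17a1 and Hsd3b1, did not separate the groups as a sum, at 1750 to 1920 CPM in WT, 1620 to 2020 CPM in the libraries labelled Gm1142 KO and 1420 to 1850 CPM in DKO. That sum was carried by Hsd17b3 and Akr1cl, at 804 ± 22.0 and 615 ± 18.2 CPM in WT. It therefore mainly follows those genes and is no measure of Leydig cells. Akr1cl was called higher in the libraries labelled Gm1142 KO (890.0 ± 73.2 CPM), while the other 7 tested Leydig markers had negative log2 fold changes, 2 of them called, and the median of the 8 was -0.49. The part of Leydig cells in the steroid-synthesis genes was not tested. Without replicate 2 of both knockout groups, 5 of the 8 genes were called in place of 3.

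In DKO against WT none of the 8 was called by edgeR, DESeq2 or limma-voom, and 0 had an unadjusted p under 0.05. Fdxr, Hsd3b1 and Cyp17a1 were higher in DKO than in the libraries labelled Gm1142 KO, by 1.01, 0.59 and 2.15 on the log2 scale. The Cyp17a1 call was not made with DESeq2 (adjusted p = 0.0634) or limma-voom (0.0540), and that of Hsd3b1 was lost without DKO replicate 1 (adjusted p of 0.0601 by edgeR), without DKO replicate 2 (0.0615) and when replicate 2 of the libraries labelled Gm1142 KO was dropped (0.0577).

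Genes of ovarian fate, which Sox9 and Dmrt1 oppose, were read from 15 genes, of which 11 were tested. Against WT, 0 were called in either knockout group by edgeR, DESeq2 or limma-voom, and 0 had an unadjusted p under 0.05 with edgeR. Over all tested genes 18.5% were called in the libraries labelled Gm1142 KO and 0.0927% in DKO. Among 11 genes, some of them with few counts, a count of 0 says little for either group, and least for DKO. The median log2 fold change was -0.11 in the libraries labelled Gm1142 KO and -0.10 in DKO. Foxl2, the factor that keeps granulosa-cell identity, was at 3.64 CPM or less in every library and was not tested. The most abundant of the list, Ctnnb1, the Wnt effector beta-catenin, changed by -0.11 (SE 0.13) in the libraries labelled Gm1142 KO, and Fst, which encodes the activin antagonist follistatin, by -0.35 (SE 0.26). Axin2, a Wnt target, was lower in DKO than in those libraries (-0.65, SE 0.19, adjusted p of 0.0192 by edgeR), a call that was lost without replicate 1 of the libraries labelled Gm1142 KO (adjusted p of 0.0541 by edgeR), without DKO replicate 2 (0.0742) and without DKO replicate 3 (0.0510).

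**Figure D4:**
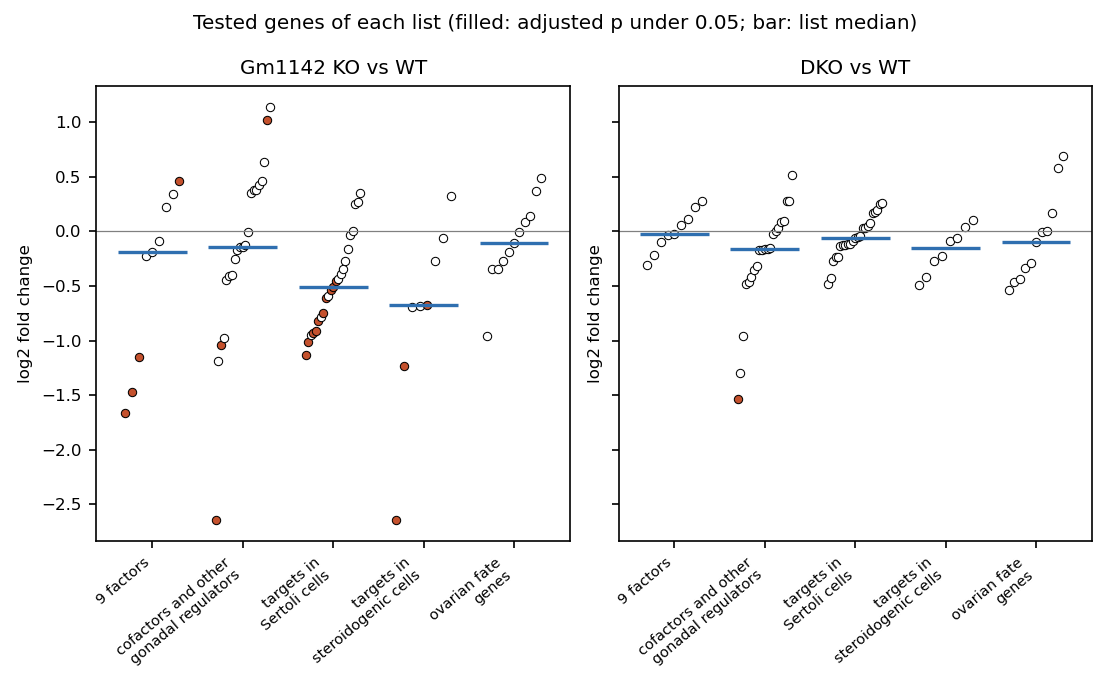
Log2 fold change of every tested gene of the 9 factors and of the 4 lists read beside them, against WT, for the libraries labelled Gm1142 KO (left) and for DKO (right). Filled points have an edgeR adjusted p under 0.05 and bars are list medians, which are -0.51 for Sertoli targets on the left and -0.06 on the right.

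Markers of other cells of the dissected tissue were present in all groups. Peritubular markers summed to 781 to 896 CPM in WT, against 649 to 909 CPM in the libraries labelled Gm1142 KO, endothelial markers to 166 to 202 and 139 to 244 CPM, macrophage markers to 65.9 to 80.4 and 57.3 to 65.6 CPM, and duct markers to 96.5 to 123 and 97.7 to 112 CPM. Of these, macrophage markers alone did not overlap between those groups, with a gap of only 65.6 against 65.9 CPM. Of the 8 macrophage markers, 6 had negative and 2 positive log2 fold changes, and 0 were called by edgeR. In DKO the duct markers summed to 60.1 to 81.1 CPM, below every WT library, with a median log2 fold change of -0.82 over the 7 tested and 0 called by edgeR. Adrenal markers, which would mark stray tissue that also makes Nr5a1 and Nr0b1, summed to 7.11 CPM or less in every library. The part of these sums in the levels of the 9 factors was not tested.

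Likeness of pattern was described by Pearson's r of log2 CPM over the 9 libraries, among 11358 other genes with a mean of at least 5 CPM. These libraries share the separation of the 3 libraries labelled Gm1142 KO, so r was also taken over the 6 WT and DKO libraries. The genes named were picked by r over the 9 libraries, which include these 6, so r over 6 is no independent check. Among 11358 genes and so few libraries, the highest values can be this high without any link. Pnkd was most like Sox9 (r = 0.985 over 9 libraries and 0.940 over 6), followed by Mprip and Ppp6r3. Mettl4 led for Sox8 (0.979 and 0.819), before Pygo2 and Zbtb20, and Kifc1 for Wt1 (0.989 and 0.857), before Rnf8 and Ccndbp1. For Gata1 it was Slc44a2 (0.980 and 0.950), for Gata4 Atp2b1 (0.949 and 0.970) and for Dmrt1 Ddx51 (0.938 and 0.965). Nr5a1 was closest to Syt13 (0.963 and 0.936), Lhx9 to Gcc1 (0.968 and 0.937) and Nr0b1 to Gramd3 (0.928 and 0.949). Among the members themselves, Sox9 and Sox8 had r = 0.918 over 9 libraries, and Sox9 and Wt1 had -0.911. Over the 6 WT and DKO libraries these were 0.501 and -0.309.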

How the data were processed

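Poly(A) RNA from 9 testes samples was counted per gene by the submitters, and the deposited table holds raw read counts with each library in a column of its own. Tools listed in the submitters' processing notes are cutadapt, Bowtie2, STAR, featureCounts, on the build mm39. Neither the annotation release nor the strand and multi-mapping settings of the counting is given in the sources used here, which matters for genes that overlap or have near copies. Positions, exon lengths and symbols are from GENCODE M21 (GRCm38) and describe the reference only. Promoter sequences are from RefSeq's GRCm38.p6 table.

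Counts were analysed with edgeR 4.0.16 in R 4.3.3. Genes passed filterByExpr (minimum count 10, minimum total 15), and sizes were scaled by TMM, with factors of 0.856 to 1.07. The quasi-likelihood fit took all 9 libraries with a coefficient for each group, contrasts were tested by F-tests, and p-values were adjusted by Benjamini-Hochberg over 17251 genes. The SE is the size of the log2 fold change divided by the square root of F. Alternatives were RLE size factors, other filters, DESeq2 1.42.0, limma-voom (limma 3.58.1), a blocked fit on the replicate number, a fit of only the groups compared, removal of mitochondrial genes, removal of GC and length trends (known for 97.4% of tested genes), and leaving out libraries.

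Members and lists were chosen with earlier results of these data known, so no list is independent evidence. Raw counts in the deposited table are whole numbers, and no column was left unmapped. Named genes were the members, the genes called in the 4 lists of regulators, targets and ovarian genes, and the 2 most abundant of each list, plus the genes most like each member (Pearson's r of log2(CPM + 0.5), mean of at least 5 CPM). Amh, Sry, Foxl2, Klf1, Hba-a1, the targeted and the antisense genes were named with their values already known. Some genes that the rule would name are not reported here, though the counts of their lists include them. PCR copies are not separate molecules, so floors cover counting error only.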

Additional observations from a re-analysis of the deposited data

How the results depend on the processing

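The number of members called was 4 in the libraries labelled Gm1142 KO against WT, 0 in DKO against WT and 4 between the knockout groups. It stayed within 1 of these in all 19 alternatives, and the change was Gata1 each time. Leaving out 1 library gave 3 to 4, 0 and 3 to 4 members. Over all genes, leaving out 1 library gave 2037 (without WT replicate 1) to 3380 calls in place of 3196, 9 (without WT replicate 1) to 45 (without replicate 2 of the libraries labelled Gm1142 KO) in place of 16, with 32 without DKO replicate 1, and 2128 (without DKO replicate 2) to 3219 in place of 3301. Without replicate 2 of both knockout groups, 2004 genes were called between these groups. In DKO against WT, 110 genes were called with no filter, 63 with DESeq2, 28 with the compared groups alone and 8 without mitochondrial genes; the cause was not tested. Signs turned only for changes that had not passed. Leaving out 1 library moved Nr0b1 in the libraries labelled Gm1142 KO between -0.23 and 0.15 (positive without WT replicate 2 or replicate 1 of that group) and Inha there between -0.113 and 0.016. In DKO against WT it moved Sox8 between -0.14 and 0.16, Gata4 between -0.023 and 0.10, and Gata1 between -0.10 and 0.88. Dmrt1 between the knockout groups moved between -0.107 and 0.023. Sox8 in DKO gave 0.002 with limma-voom. Without replicate 2 of both knockout groups, DKO against WT gave 0.007 for Wt1, -0.009 for Gata4 and -0.042 for Gata1.

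The replicate numbers are shared by the groups, and the labels do not say that they pair samples. Deviations from the group means correlated by 0.037 to 0.083 between same-numbered libraries of WT and the group labelled Gm1142 KO, where each library matched its own number best, by -0.014 to 0.101 between WT and DKO and by -0.267 to 0.044 between the knockout groups. With the replicate number as a block, 2921, 16 and 2965 genes and 4, 0 and 4 members were called. The blocked fit ended the calls of Aard (adjusted p of 0.0699 by edgeR) and Cyp26b1 (0.0592) in the libraries labelled Gm1142 KO, and of Cyp26b1 (0.0511) and Clu (0.0667) between the knockout groups. Gata1 had 7 to 78 counts per library and a wide spread within WT.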
